A study of Mus musculus and Homo sapiens with 15 samples.

Results

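Cyrano is a long non-coding RNA that is called 1700020I14Rik in the mouse annotation and OIP5-AS1 in the human one. It was chosen from these data for the difference in its edited reads between brain slices given an RBFOX2 antibody and slices given the editing enzyme alone, so that difference is described here and not tested. The mouse gene (ENSMUSG00000085438.1, a lincRNA of 13206 nt) lies on the plus strand of GRCm38 at chr2:119594297-119607502. Its annotated transcript of 8300 nt has exons at chr2:119594303-119594434, chr2:119596259-119596511 and chr2:119599588-119607502, and the last of these is 7915 nt long. The human gene (ENSG00000247556.7, 38435 nt, plus strand) lies at GRCh38 chr15:41283958-41322392 and has a comparable last exon of 8499 nt at chr15:41298041-41306539. These are 1 of 15532 mouse genes and 1 of 14060 human genes with a listed edited site on their own strand. The brain cluster labels carried the gene as Oip5os1 (86 clusters over 9 libraries) and never as 1700020I14Rik (0 clusters), a pair of names that RefSeq gives for 1 gene. The HEK293XT labels named OIP5-AS1 in 35 clusters over 6 libraries.

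INSCRIBE marks the RNA near a protein in fixed cells or tissue: an antibody to the protein recruits an enzyme, APOBEC1 joined to a nanobody, which deaminates nearby cytidines so that they are read as T. RBFOX2 is a splicing factor of neurons and other cells that binds the RNA word UGCAUG. There were 5 groups of 3 libraries. The brain groups were PFA-fixed whole brain sections of female mice, cut as 20 µm slices from C57BL/6J mice of 2 months, and were given antibody and enzyme (RBFOX2-INSCRIBE), enzyme without antibody (enzyme-only) or neither (buffer-only). Each replicate was 1 slice, and the methods name at most 2 mice, so p-values measure the spread between slices, which may share an animal. The remaining groups were libraries from 1 ng or 100 pg of RNA of HEK293XT cells, an immortalized human embryonic kidney line, given the enzyme without antibody.

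Cyrano is known as a strongly conserved, mainly cytoplasmic RNA that is abundant in the vertebrate brain. It holds a site with unusually extensive pairing to the microRNA miR-7, and that pairing leads to the destruction of miR-7 by a ubiquitin ligase that acts on the Argonaute protein carrying it. In the absence of Cyrano, miR-7 accumulates and the circular RNA Cdr1as, which carries many miR-7 sites, is lost.

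The conserved miR-7 site and the UGCAUG elements are printed because they are the sequence features against which the edited positions below are placed. All genomic sequences are given 5′ to 3′ on the plus strand as DNA. The mature microRNAs come from RefSeq, with the seed (bases 2 to 8) in capitals. In the genomic sites the capitals mark the bases that pair with the seed.
mmu-miR-7a-5p: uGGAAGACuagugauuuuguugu
mmu-miR-7b-5p: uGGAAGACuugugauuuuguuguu
Mouse site, GRCm38 chr2:119602133-119602160: aagaacaacaaaatcaccaatGTCTTCC
Human site, GRCh38 chr15:41300571-41300598: aagaacaacaaaatcaccaatGTCTTCC
Mouse second seed match, GRCm38 chr2:119599943-119599970: acttcaggttttttttttaatGTCTTCC
Human second seed match, GRCh38 chr15:41298408-41298435: acttcagggtttaaaaaaaatGTCTTCC

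The first site was the same in mouse and human at 28 of 28 bases, and beside the seed match it held an unbroken run of 13 bases complementary to the 15-nt 3′ part of miR-7a. The other seed match agreed at 21 of 28 bases and had a run of 3. The mouse gene held 10 UGCAUG words on its own strand, 4 in introns and 6 in the last exon. Of the last-exon words 5 are printed, with the word in capitals and 12 bases on each side.
Mouse UGCAUG 1, chr2:119602232: gttaggggttagTGCATGaatttagtataa
Its human counterpart, chr15:41300670: gttaggggttagTGCATGagtctagtgatt
Mouse UGCAUG 2, chr2:119602620: aattttctgtttTGCATGtctgagatgccg
Mouse UGCAUG 3, chr2:119604423: attcagaacaacTGCATGatcatgaagaca
Its human counterpart, chr15:41303407: tattcagacatcTGCACTatctggggacag
Mouse UGCAUG 4, chr2:119605142: cagttgaagtttTGCATGtatcattgcttt
Mouse UGCAUG 6, chr2:119605271: ctaacattctaaTGCATGgttgaaaatttt
Its human counterpart, chr15:41304354: cgaacattctaaTGCATGactcaaaatgtc

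In a blastn alignment of the last exons, 4 of the 6 mouse words lay opposite a human UGCAUG. The third lay opposite another word and the fourth in a gap. The human last exon also held 6. The mouse transcript had 0.723 UGCAUG per kb, against a median of 0.353 per kb over 169 lincRNA genes with a transcript of at least 4000 nt, of which 81.7% held the word. In 20 of the 169, Cyrano included, the word was at least this frequent. A match is a description of the letters and not of binding.

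The deposited tables list each C with its edited reads, its covering reads and a score, and the authors kept sites with a score above 0.5 and an edited fraction below 0.8. Both every listed site and the filtered sites are given here. Brain libraries held 193252 to 339567 edited reads at filtered sites and HEK293XT libraries 78519 to 115196. Marker genes of neurons were read in all brain libraries, at summed levels of 6089 to 7138 CPM (a gene's edited reads per 1000000 edited reads in genes, here over every listed site) in RBFOX2-INSCRIBE, 6072 to 6274 CPM in enzyme-only and 5333 to 5475 CPM in buffer-only. HEK293 markers were read in both HEK293XT groups, 4 of 5 at 1 ng, where PAX2 was at 0, and 5 of 5 at 100 pg.

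At its listed positions Cyrano had similar mean cover in the 3 brain conditions and unequal editing. Cover is known only where a read was edited, and the listed positions differ between libraries. Equal cover of the whole gene is therefore not shown, and the measure per mean cover below shares this limit. The mean cover of listed Cyrano positions was 352, 352 and 266 reads in the RBFOX2-INSCRIBE libraries, 334, 332 and 292 in enzyme-only and 442, 332 and 258 in buffer-only. All listed positions together held 512, 359 and 402 edited reads with antibody (RBFOX2-INSCRIBE), 214, 244 and 200 in enzyme-only and 147, 112 and 109 in buffer-only. No library of one condition overlapped another in edited reads, while the ranges of cover did overlap. These counts are not scaled to depth, and whole libraries held 637430 to 784815 listed edited reads with antibody, 596938 to 702467 with enzyme alone and 421269 to 664346 without either. Scaled to CPM over every listed site, Cyrano still did not overlap, at 490 to 711, 345 to 371 and 236 to 276 CPM. The share of all genes that separate the 3 conditions in this way was not determined. Edited reads divided by the library's mean cover, a measure that leaves out the number of Cyrano reads, were 1.46, 1.02 and 1.51 in RBFOX2-INSCRIBE, 0.641, 0.735 and 0.684 in enzyme-only and 0.333, 0.337 and 0.422 in buffer-only. The group mean of this measure was 1.94 times as high with antibody as with enzyme alone, and 1.89 times as high with enzyme alone as in buffer. In whole slices, fewer cells of a type and less RNA per cell cannot be told apart.

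**Figure D1:**
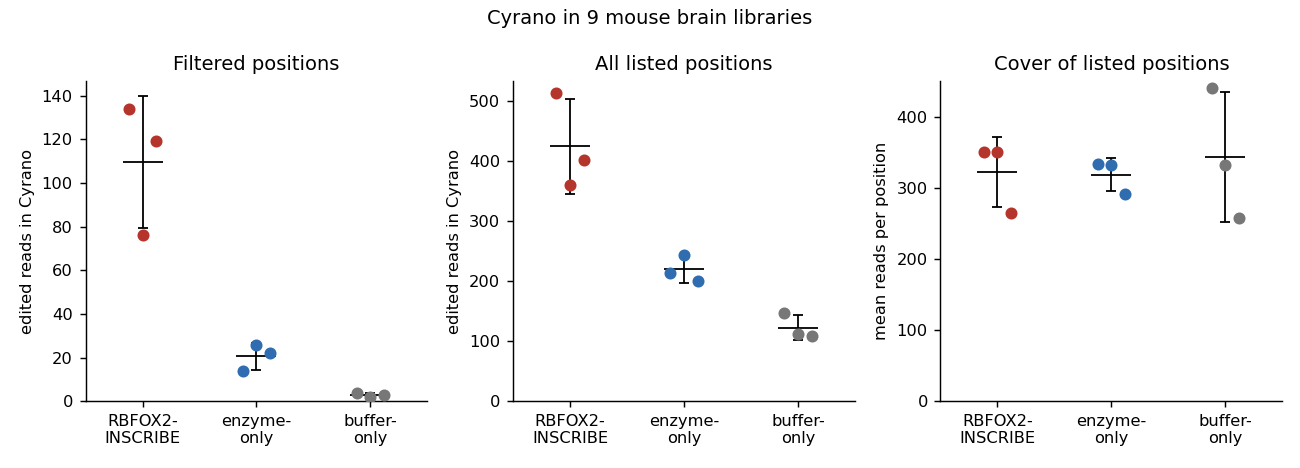
Cyrano in the 9 brain libraries (points, replicates 1 to 3 from left to right) with the mean and SD of each group (n = 3): edited reads at filtered positions, edited reads at all listed positions, and mean covering reads per listed position. Listed edited reads, not scaled to depth, separate the 3 conditions (359 to 512, 200 to 244 and 109 to 147), while mean cover, 258 to 442 reads over all 9 libraries, does not.

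The authors' filter removed most of this signal, in which the score of a site with few edited reads fell with its cover. Across the listed sites of these libraries, a position with 1 edited read passed up to a cover of 69 and failed from 70 on, and 2, 3, 4 and 5 edited reads passed up to covers of 168, 268, 367 and 467. Cyrano sat well above the first limit: 98.5% of its position and library pairs in RBFOX2-INSCRIBE and 97.9% in each of the other groups had a cover of at least 70. Its mean cover per listed site, 328 reads, was exceeded by 308 of 6357 tested genes (4.85%).

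Positions with a single edited read made up 552 of 797 pairs in RBFOX2-INSCRIBE (69.3%), 433 of 530 in enzyme-only (81.7%) and 291 of 329 in buffer-only (88.4%). After the filter, 35, 19 and 31 of 291, 238 and 268 positions were left in RBFOX2-INSCRIBE, 10, 10 and 8 of 180, 194 and 156 in enzyme-only and 3, 2 and 3 of 127, 102 and 100 in buffer-only. The highest number of edited reads at any position was 11, 5 and 3 in the 3 groups. Over the 9 libraries 7.31% of Cyrano positions passed, against a median of 18.3% (2.74 to 55.5%) among 185 genes of like cover and 48.4 to 56.5% of all sites per library. Filtered edited reads were 134, 76 and 119 in RBFOX2-INSCRIBE, 14, 26 and 22 in enzyme-only and 4, 2 and 3 in buffer-only. The ratio of antibody to enzyme alone was therefore 5.31 after the filter and 1.93 before it, and that of enzyme alone to buffer 6.89 and 1.79.

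**Figure D2:**
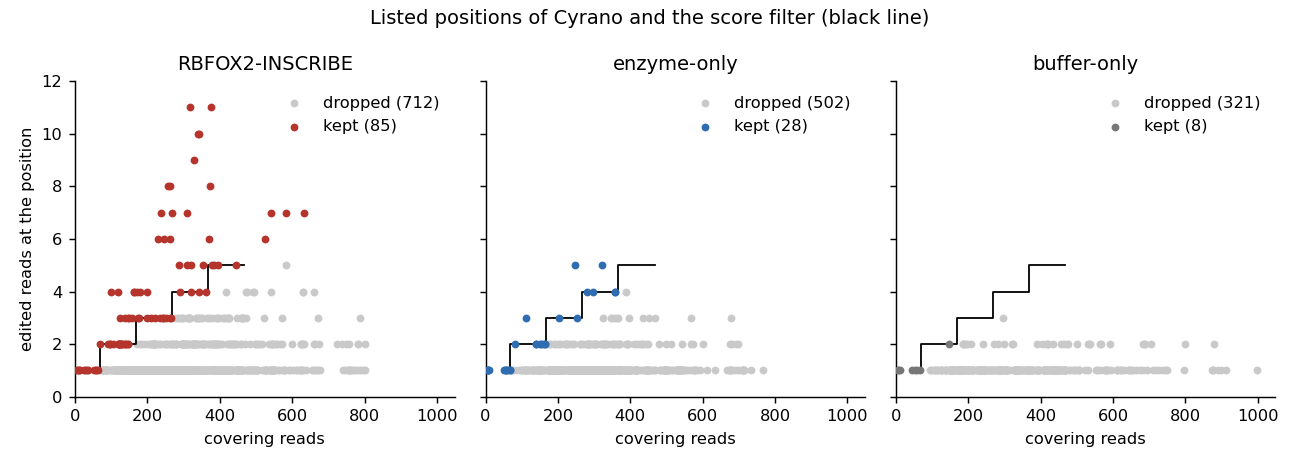
Edited reads (y axis) against covering reads (x axis, linear) at every listed Cyrano position of the 3 libraries of each brain condition, coloured where the position passed the filter and light grey where it was dropped. The black step line is drawn at the highest cover that 1 to 5 edited reads passed, and most points lie at 1 edited read with a cover above 69 and were dropped.

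The enzyme without antibody was compared with buffer to ask how much editing the enzyme leaves on this RNA by itself. After the filter, Cyrano rose with the enzyme from 14.7 ± 3.40 CPM to 80.5 ± 22.3 CPM (SD, n = 3 each). The difference was 2.31 on the log2 scale (SE 0.46), with an adjusted p of 0.00291 in edgeR's quasi-likelihood test over 6357 genes. In that comparison 0.283% of the genes tested were called higher (18 genes) and 0.378% lower (24 genes), 0.661% in all. Cyrano had the 7th largest log2 difference of the 6357 genes. With every listed site counted, Cyrano stood at 358 ± 13.1 CPM against 251 ± 22.1 CPM, a log2 difference of 0.42 (SE 0.12) that missed the threshold (adjusted p = 0.0525 in edgeR, where 0.963% of 7687 genes were called higher). The call therefore rests on which sites are counted. Between these groups the summed markers of 3 cell types, 5 of 5 read in each, also differed without overlap: those of neurons as above, those of astrocytes at 5249 to 5843 CPM with the enzyme and 3529 to 4010 CPM in buffer, and those of oligodendrocytes at 2032 to 2120 and 1824 to 1970 CPM (every listed site). Their part in the result was not tested.

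Edited positions per library were also higher with the enzyme, 9.33 ± 1.15 against 2.67 ± 0.58 after the filter (exact permutation test, two-sided, p = 0.1, the smallest that 3 against 3 allows). Edited reads per mean cover of listed positions were 0.687 ± 0.0468 against 0.364 ± 0.0502 (exact permutation p = 0.1), with no overlap. At 10.8% of the tested genes every enzyme-only library exceeded every buffer-only one in CPM after the filter. Such a share was not determined for edited positions or for edited reads per mean cover. The clusters called in the libraries, 10, 10 and 8 against 3, 2 and 3, were built from these same filtered sites and add no separate measurement. The fraction of covering reads edited at filtered positions was 2.24, 1.44 and 1.38% with the enzyme and 1.90, 1.80 and 4.29% in buffer, a difference that missed the threshold (exact permutation p = 0.3). Since a position with few edited reads passes only at low cover, this fraction has a floor set by the filter and cannot show low editing. Over every listed position the fractions were 0.356, 0.379 and 0.438% against 0.262, 0.330 and 0.422%, which overlap.

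With the RBFOX2 antibody, Cyrano stood at 370 ± 109 CPM after the filter and at 624 ± 118 CPM over every listed site (SD, n = 3). Against enzyme alone these were log2 differences of 2.24 and 0.84, and this contrast chose the gene, so they carry no test. In it 0.912% of 6357 genes were called higher and 0.0157% lower in edgeR (0.928% in all), 6.45% were higher in every antibody library than in every enzyme-only one, and with every listed site 1.89% were called higher. The medians over all genes were -0.01 here and -0.01 in the comparison of enzyme with buffer. In the same contrast the 9 markers of striatal neurons, all read in every group, summed to 1270 to 1791 CPM over listed sites with antibody, 679 to 882 CPM with enzyme alone and 523 to 687 CPM in buffer. Astrocyte markers overlapped, at 4369 to 5437 CPM with antibody, and oligodendrocyte markers were lower than with enzyme alone, at 1748 to 1871 CPM. The part of these markers in the result was not tested.

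Repeated positions were most frequent with antibody. Over the 9 brain libraries 886 positions of the gene were listed, 845 of them in the last exon, and 60.1% of the 1405 cytidines of that exon were listed in at least 1 library. In RBFOX2-INSCRIBE 562 distinct positions were listed, 125 of them in 2 libraries and 55 in all 3. In enzyme-only 442 were listed, 74 in 2 libraries and 7 in all 3, and in buffer-only 299, 28 in 2 and 1 in all 3. Of the 55 positions shared by the antibody libraries, 15 were listed in no enzyme-only library and 9 in neither control. After the filter, 4 positions were shared by all 3 antibody libraries and 0 by all 3 of either control group. More edited reads in a library also give more chances of a shared position.

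The last exon, which makes up 95.4% of the transcript, held 94.5 to 98.6% of the listed edited reads in every brain library. Editing along it was uneven with antibody. Summed over the 3 libraries and every listed site, the stretch from 2500 to 3000 nt of the last exon held 175 edited reads with antibody, 45 with enzyme alone and 22 in buffer. The stretch from 5000 nt held 162, 71 and 57, and that from 5500 nt held 137, 43 and 11. The last stretch, from 7500 nt to the end of the exon, held 71, 29 and 21. By contrast, the first 500 nt held 33, 39 and 19, and the 500 nt that follow held 34, 39 and 21. With enzyme alone the most reads, 79 and 71, lay in the stretches from 4500 and 5000 nt, where antibody gave 134 and 162. In these sums, which are not scaled to depth, antibody exceeded enzyme alone in every stretch from 1000 nt to the end of the exon, and not in its first 1000 nt. The excess was smallest from 1500 nt, at 37 against 34. There, as in several other stretches, the libraries overlapped (12, 11 and 14 with antibody, 17, 10 and 7 with enzyme alone). In the last stretch each antibody library (36, 17 and 18) exceeded each enzyme-only library (12, 6 and 11).

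**Figure D3:**
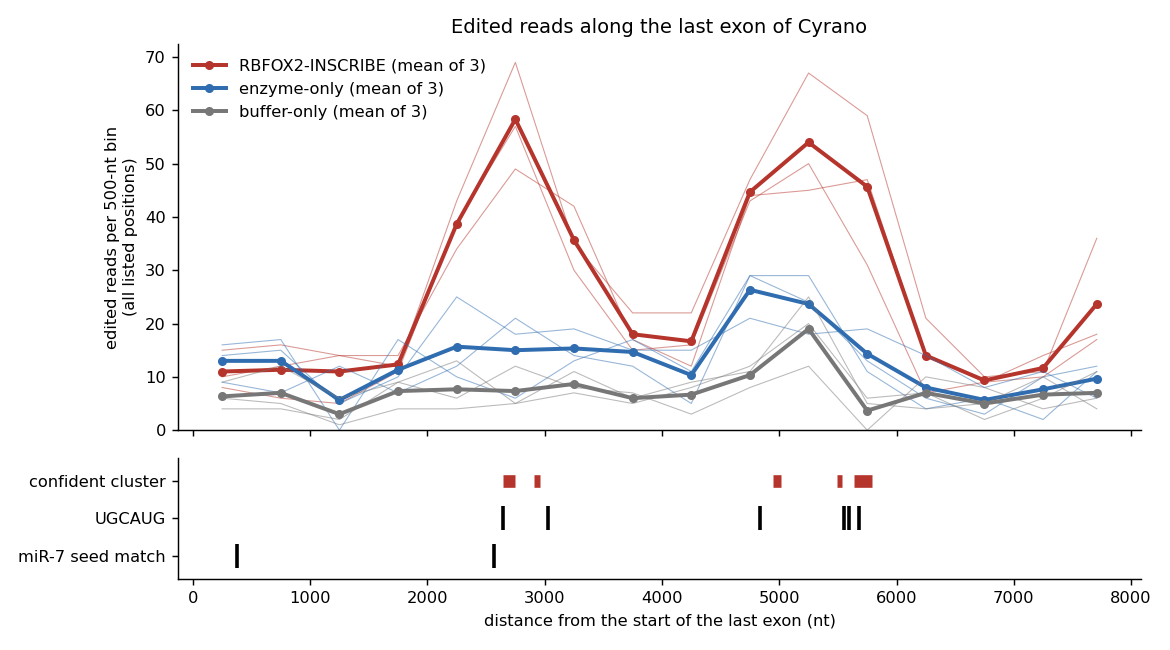
Listed edited reads in 500-nt bins along the last exon of Cyrano (x axis, distance from the exon's start in nt), as the mean of 3 libraries (thick lines) and single libraries (thin lines) of each brain condition, with the 5 confident clusters, the 6 UGCAUG words and the miR-7 seed matches marked below. The antibody libraries stand above the controls from 2000 to 3500 nt and from 4500 to 6000 nt. They also do so from 6500 to 7000 nt and from 7500 nt to the end. In the first 1000 nt they lie among those of enzyme alone.

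Around the UGCAUG words the share of editing was higher with antibody, a description of the contrast that chose the gene. Within 200 nt of a UGCAUG lay 41.2, 46.8 and 39.8% of listed edited reads with antibody, 25.2, 29.5 and 36.5% in enzyme-only and 23.8, 29.5 and 22% in buffer-only, where 21.1% of the last exon's cytidines lie. The antibody libraries, lowest at 39.8%, did not overlap the controls, highest at 36.5%, while the control groups overlapped each other. The share of genes that separate the groups in this way was not determined. After the filter the shares were 68.66, 78.9 and 75.6%, 42.9, 23.1 and 59.1%, and 25, 50 and 33.3%, the last from 1 edited read of 4, 2 and 3. Between enzyme alone and buffer, the filtered shares of 41.7 ± 18.0% and 36.1 ± 12.7% gave an exact permutation p of 0.8.

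Editing outside these windows was also higher with antibody. Edited reads per mean cover outside them were 0.856, 0.543 and 0.910 in RBFOX2-INSCRIBE, 0.479, 0.518 and 0.434 in enzyme-only and 0.254, 0.238 and 0.329 in buffer-only. Inside they were 0.600, 0.478 and 0.602, then 0.162, 0.217 and 0.25, then 0.0793, 0.0993 and 0.0929. Antibody over enzyme alone was thus 2.67 inside and 1.61 outside, and enzyme alone over buffer 2.31 inside and 1.75 outside. Around the 6 words the listed edited reads under antibody, summed over 3 libraries, ran from 82 at the first to 197 at the second, against 24 to 63 with enzyme alone and 10 to 30 in buffer, where the windows of the last 3 words overlap. The third word, opposite no human UGCAUG, held 106, 55 and 16.

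**Figure D4:**
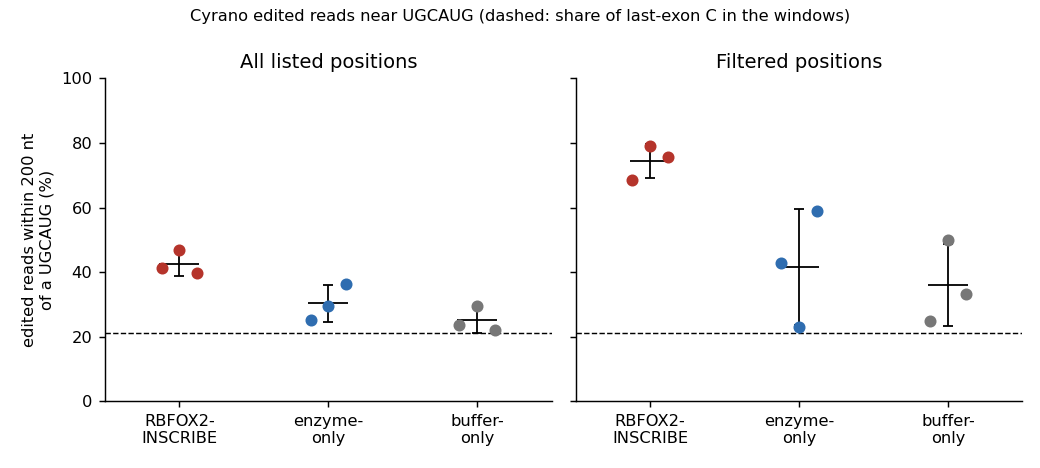
Percent of Cyrano's edited reads within 200 nt of a UGCAUG at all listed positions (left) and at filtered positions (right), by library (points) with the mean and SD of each group (n = 3), and with the 21.1% of last-exon cytidines that lie in the windows as a dashed line. At listed positions the antibody libraries lie at 39.8 to 46.8%, above all 6 controls at 22 to 36.5%.

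The authors' list of confident clusters, those found in all 3 replicates, held 5 on Cyrano among 5177 for RBFOX2-INSCRIBE. The same 5 were among the 5031 left after buffer-only clusters were subtracted. The enzyme-only list of 4542 clusters (4401 after subtraction) and the buffer-only list of 2092 held 0 on Cyrano. The share of genes that differ in this way between the lists was not determined. The first cluster, chr2:119602229-119602333, and the fifth, chr2:119605229-119605378, each held a UGCAUG. The second at chr2:119602499-119602543 was 77 nt from one, the third at chr2:119604539-119604598 was 111 nt away and the fourth at chr2:119605079-119605123 was 19 nt away.

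These 5 places were chosen by clusters in all 3 antibody libraries. Higher counts and shares there than in the controls thus follow in part from the choice and are no separate support. The second cluster held the most editing, with 33, 27 and 19 listed edited reads in the antibody libraries, 2, 4 and 6 with enzyme alone and 0, 1 and 3 in buffer. The first held 10, 8 and 11, then 0, 3 and 2, then 1, 0 and 1. The third held 12, 8 and 12, then 4, 3 and 10, then 0, 1 and 2. In the third the antibody and enzyme-only libraries overlapped, since the third enzyme-only library reached 10. The fourth held 19, 11 and 9, then 2, 2 and 7, then 1, 1 and 0. The fifth held 11, 5 and 14, then 4, 2 and 2, then 1, 0 and 0. Together the 5 clusters held 16.6, 16.4 and 16.2% of the listed edited reads in the antibody libraries, 5.61, 5.74 and 13.5% with enzyme alone and 2.04, 2.68 and 5.50% in buffer. The third enzyme-only library therefore stood near the antibody libraries in this share, and clusters were called in it at cluster places 3 and 4.

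Single positions are printed with 10 bases on each side and the edited base in capitals. They are the 6 with the most edited reads in the antibody libraries among the positions with the most filtered edited reads in brain. They were chosen for their reads with antibody. Higher counts there than in the controls thus follow in part from the choice and are no separate support.
Position 119602515, in cluster 2: gttcaggcttCtcttgctctc
Position 119605098, in cluster 4: gagtacctgaCtgcatctccg
Position 119602517, in cluster 2: tcaggcttctCttgctctcta
Position 119604562, in cluster 3: ttcagtcttaCtgtagtctct
Position 119602661: ggaatgtttaCtctgtggcca
Position 119605052: tcctgtatgaCttgtttgttt

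The C at 119602515, 105 nt from a UGCAUG, was edited in 11 of 376, 10 of 340 and 8 of 263 reads with antibody and in 2 of 291, 1 of 334 and 1 of 300 with enzyme alone. The edited share was 2.93% (95% Wilson interval 1.64 to 5.16%), 2.94% (1.61 to 5.33%) and 3.04% (1.55 to 5.89%) with antibody, intervals that cover counting error only. It was 0.687% (0.189 to 2.47%), 0.299% (0.0529 to 1.68%) and 0.333% (0.0589 to 1.86%) with enzyme alone. The 3 antibody libraries were close to each other, and their intervals overlap those of the enzyme-only libraries.

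The C at 119605098, 44 nt from a UGCAUG, was edited in 11 of 317, 7 of 268 and 7 of 237 reads with antibody and in 2 of 218, 1 of 321 and 5 of 247 with enzyme alone. The C at 119602517, 2 nt beyond the first, was edited in 8 of 373, 10 of 341 and 8 of 258 reads with antibody, was not listed in the first enzyme-only library and was edited in 1 of 331 and 2 of 301 in the others. In contrast, 119605052, 90 nt from a UGCAUG, was edited in 7 of 582, 6 of 525 and 3 of 426 reads with antibody and in 3 of 468, 3 of 569 and 2 of 436 with enzyme alone, a smaller separation. Positions 119604562 and 119602661, at 134 and 36 nt, had 5, 5 and 6 and 9, 3 and 7 edited reads with antibody. With enzyme alone they had 1, 1 and 4 and 1, 2 and 2. None of these 6 positions was listed in a buffer-only library, whose cover there is not known from the tables. In all 6 the base before the edited C was A or T.

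APOBEC1 is known to prefer a C that follows an A or a U. The base before a listed Cyrano position was A or T at 78.0, 71.0 and 76.5% of positions with antibody, 67.2, 69.1 and 71.8% with enzyme alone and 54.3, 59.8 and 50% in buffer. Of all cytidines of the last exon, 53.6% follow A or T, so the buffer libraries lay on both sides of that share and the enzyme-treated libraries above it.

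Cover near the conserved miR-7 site was lower than over the gene, at a mean of 148, 165 and 108 reads per listed position within 100 nt in the antibody libraries. Within 100 nt of it the listed edited reads were 10, 3 and 5 with antibody, 0, 1 and 3 with enzyme alone and 1, 2 and 1 in buffer, and the site lay 72 nt from the first UGCAUG. Around the second seed match they were 7, 0 and 4, then 5, 3 and 4, then 0, 1 and 0. The antibody and enzyme-only numbers overlapped at both sites.

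In HEK293XT, OIP5-AS1 was edited at few positions. The filtered tables held 6, 11 and 15 positions on its strand at 1 ng and 1, 2 and 3 at 100 pg, with 10, 16 and 21 edited reads against 7, 2 and 23. On the CPM scale this was 250 ± 67.4 CPM against 143 ± 150 CPM, a log2 difference of 0.72 (SE 0.95) that missed the threshold (adjusted p = 0.954 in edgeR). Of 2113 genes tested 0% were called higher at 1 ng and 0.237% lower (5 genes), with 70 higher and 136 lower at an unadjusted p under 0.05 and 18 higher and 75 lower in DESeq2. At 10.5% of the genes every 1 ng library exceeded every 100 pg one, and with every listed site 0% of 3276 genes were called higher. Without the third 100 pg library the log2 difference was 2.05 (adjusted p = 0.356 in edgeR). That library held 13 edited of 84 reads at position 41285358 and 7 of 46 at 41285280, after a G and a C.

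The median cover of listed OIP5-AS1 positions was 38, 41 and 22 reads at 1 ng and 81, 86 and 65 at 100 pg, so the gene was sampled far less deeply than in brain. The edited fraction of filtered positions was 5.41, 4.35 and 5.01% at 1 ng and 7.69, 4.44 and 16.7% at 100 pg (exact permutation p = 0.3), on the same floor. The methods name the low-input kit, which does not keep strand, for 1 ng and 100 pg of RNA. The assignment of these sites to OIP5-AS1 by strand is therefore uncertain in all 6 libraries. The opposite strand of the interval, where OIP5 overlaps, held 8, 12 and 9 filtered edited reads at 1 ng and 24, 8 and 18 at 100 pg. Of 38 distinct filtered positions on the strand of OIP5-AS1, 0 occurred in more than 1 library, and 30 lay in the long last exon. One of them, 41300597 in the seed match of the miR-7 site, was edited in 1 of 6 reads of the third 1 ng library. Of 431 last-exon cytidines aligned between mouse and human, 272 were listed in brain and 7 were filtered in HEK293XT, with 2 in both. The confident lists of both HEK293XT groups held 0 clusters on OIP5-AS1.

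**Figure D5:**
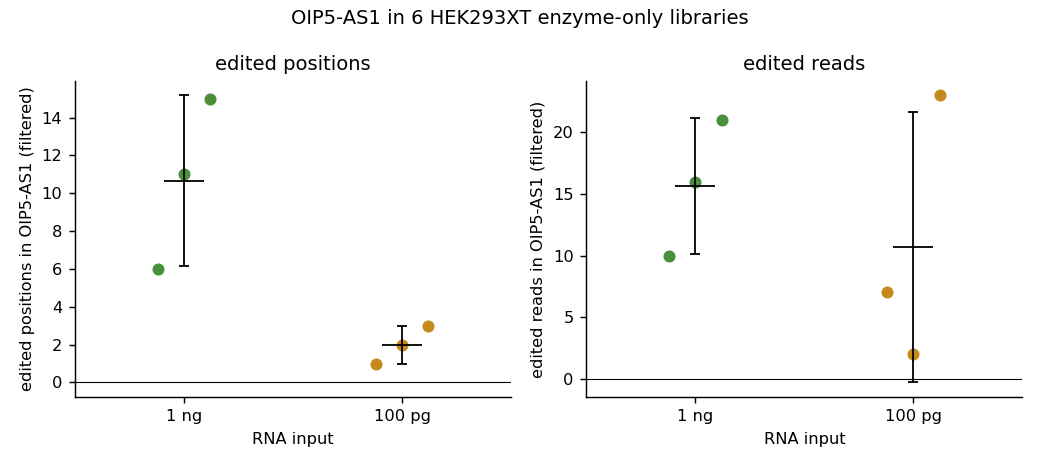
OIP5-AS1 in the 6 HEK293XT enzyme-only libraries by RNA input (points) with the mean and SD of each group (n = 3): edited positions (left) and edited reads (right), both after the filter. Positions run from 6 to 15 at 1 ng and from 1 to 3 at 100 pg, while edited reads overlap (10 to 21 against 2 to 23).

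Of 16 genes of the miR-7 circuit, which covers Argonautes, their TNRC6 partners, the ligase that ends miR-7 and the host of Cdr1as, 10 were tested in brain and 0 passed in either comparison in edgeR (unadjusted p under 0.05: 1 higher and 1 lower with enzyme against buffer, 0 and 1 with antibody against enzyme alone; DESeq2: 0 of the 2 it gave an adjusted p). Over all 6357 genes 5.36% were higher and 5.55% lower at an unadjusted p under 0.05 with enzyme against buffer, and 7.52% and 4.58% with antibody, and DESeq2 called 2 higher and 27 lower of 565 with an adjusted p, and 40 and 0 of 688. With so few list members, 0 passing is near the background shares. Their median log2 differences were 0.09 and -0.02, near those of all genes. Tnrc6b, a scaffold of microRNA silencing, stood at 371 ± 33.2 CPM with antibody, 405 ± 50.5 CPM with enzyme alone and 350 ± 24.0 CPM in buffer, and Ago2, the slicing Argonaute, at 219 ± 61.1, 202 ± 42.4 and 224 ± 67.4 CPM. Of 12 miR-7 targets 7 were tested and 0 passed in either comparison in edgeR (unadjusted p under 0.05: 1 higher in the first and 1 lower in the second; DESeq2 gave none an adjusted p), with medians of 0.05 and 0.27. In HEK293XT 7 genes of the circuit and 0 of the targets were tested, and 0 passed in edgeR or DESeq2 (unadjusted: 1 higher and 1 lower).

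Of the 5 Pumilio and RBFOX proteins, all tested, 0 passed between enzyme and buffer in edgeR (unadjusted: 1 higher and 2 lower; DESeq2: 0 of 3). Against enzyme alone, Rbfox1, a splicing factor of the same family as RBFOX2, rose with antibody from 4973 ± 269 to 5956 ± 204 CPM (log2 0.32, adjusted p = 0.045 in edgeR), and the other 4 did not pass in edgeR. In the same comparison 3 were higher at an unadjusted p under 0.05, and DESeq2 called 2 of 3 higher. Of 14 other long non-coding RNAs 10 were tested. Between enzyme and buffer 1 fell, Snhg14, the long transcript that hosts snoRNAs of the Angelman region (log2 -0.40, adjusted p = 0.0359 in edgeR). Against enzyme alone 1 rose with antibody, the imprinted Meg3, from 106 ± 35.5 to 554 ± 171 CPM (log2 2.44, SE 0.21, adjusted p = 1.9e-13 in edgeR). Meg3 stood at 98.2 ± 35.3 CPM in buffer, a log2 difference between enzyme and buffer of -0.02 (SE 0.30, adjusted p = 0.991 in edgeR) that missed the threshold, and whether it differs from Cyrano in this was not tested.

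Among 63 lincRNA genes tested, Cyrano was the 1 gene called higher with enzyme than in buffer (2 were called lower), with a median log2 difference of -0.15 over the 63. Over all 6357 genes 0.283% were called higher and 0.378% lower. Cyrano's call was lost with every listed site (adjusted p = 0.0525 in edgeR) and with cover as offset (adjusted p = 0.669 in edgeR). Among the genes whose CPM over the 9 brain libraries was most like Cyrano's, by Pearson's r among 2817 genes, were Etnk1 (0.967), Snap25 (0.951), 8030462N17Rik (0.932) and Lrrc8b (0.932), a description over libraries that share the same 3 groups. Snap25 is a SNARE protein of synaptic vesicle release. Of the neighbours within 100 kb, Chp1, 7.27 kb upstream, held 9, 10 and 29 filtered edited reads with antibody, 8, 10 and 14 with enzyme alone and 4, 5 and 6 in buffer. Oip5, 2.01 kb downstream on the minus strand, held 1 read in 1 enzyme-only library, and Nusap1 and Exd1 held 0. Rtf1, a transcription elongation factor, held 14, 11 and 14 reads with antibody, the same 14, 11 and 14 with enzyme alone, and 15, 4 and 6 in buffer, and Ndufaf1 held 1 to 6 in each library.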

How the data were processed

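Cyrano, the gene lists and the tests were chosen with earlier results of these data known. The authors trimmed reads with cutadapt, removed repeats, aligned them with STAR (2.4.0 and 2.5.2, per the submitters' processing notes) to hg38 or mm10, called C-to-T sites with SAILOR after removal of known variants, and called clusters with FLARE (FDR 0.1, merged within 15 nt). The deposited site tables hold a score, counts of edited and covering reads, and the edited fraction. The deposited cluster tables hold counts of edited bases, the coverage signal (all C bases read), edited fractions and p-values. Confident lists are the authors' intersections over replicates.

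Sites were assigned by strand to genes of GENCODE annotations of GRCm38 and GRCh38. A readthrough gene covering OIP5-AS1 was left out. Sites that scored above 0.5 with an edited fraction under 0.8 formed the main counts, and every listed site an alternative. The listed tables carry no C without an edited read, so cover at unlisted positions is unknown. Counts were tested with edgeR 4.0.16 (quasi-likelihood, TMM, filterByExpr, groups of 1 system together) in R 4.3.3 at an adjusted p (Benjamini-Hochberg) under 0.05, and single values with exact permutation tests. Mouse and human exons were aligned with blastn 2.17.0 (E-value below 1e-05). Named genes were list members with the most edited reads, the 5 most like Cyrano and neighbours within 100 kb, of which 1 gene is not reported here, nor is the sequence around 1 UGCAUG. The enzyme-only and buffer-only comparison was tested on simulated data: of 200 changed genes among 6357, 65.7% of those changed 2-fold and 100% of those changed 4-fold were recovered, with 4.84% of calls false. At 1 ng against 100 pg (2113 genes) 1.49% and 26.9% were recovered. The simulated counts were drawn per gene and the changed genes only raised. The filter's dependence on cover was not simulated, so these rates do not bear on its effect on Cyrano. Depth was 178493 to 311942 filtered edited reads in genes per brain library and 50429 to 77128 per HEK293XT library. PCR copies without molecular identifiers are not independent, so intervals cover counting error only. The labels name both a stranded and a low-input kit for every sample, while the methods name the low-input kit for 1 ng and 100 pg of RNA. The alternatives were other normalizations and filters, each replicate left out, the replicate block, both strands, cover as offset, and other windows, motifs and cover minimums, and their effects are given at the end.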

Additional observations from a re-analysis of the deposited data

How the results depend on the processing

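Of 59 alternatives other than leaving out a library, 37 were counted as keeping the result. For a gene tested in edgeR this meant the direction and the side of the threshold. For numbers of genes called it meant a value within 1.5 times. For the antibody difference and the values tested by permutation it meant the direction and a value within the spread of the libraries. The permutation within replicate numbers leaves the difference unchanged, so it was counted as kept in advance. For Cyrano with enzyme against buffer, the log2 difference of 2.31 passed under the remaining alternatives but not with every listed site (0.42), with cover as offset (0.87; the filter bounds the cover of passing sites by their edited reads, so this offset takes out part of the change by construction) or with both, an alternative chosen after seeing the data (0.45). DESeq2 gave 2.35 with no adjusted p (unadjusted p = 3.8e-05, edgeR's 4.4e-06). The number of genes called was 42 in this comparison, 131 with every listed site, 15 with cover as offset and 0 with both, and 11 to 35 without 1 library. The described antibody difference of 2.24 was 0.84 with every listed site, 0.85 with cover as offset too, and 2.03 to 2.47 without 1 library. The OIP5-AS1 difference was 0.27 to 2.05 without 1 library. At 1 ng against 100 pg 5 genes were called, and 0 with every listed site, 11 with DESeq2's size factors, 93 with DESeq2's test, 41 without the filter on low counts, 0 with cover as offset, 14 with both strands, 0 with every listed site and cover as offset, and 0 to 6 without 1 library.

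The difference in positions (6.67) was 67.0 with every listed site and 0.0257 per 1000 sites of the library, and 6.33 to 7.33 without 1 library, as was that in clusters. The difference in the edited fraction reversed to 0.0530 percentage points with every listed site, and was -1.41 to -0.163 without 1 library. For OIP5-AS1 it was -7.26 to -1.15. The difference in the share near UGCAUG between enzyme and buffer was 24.1 percentage points at a cover of at least 20, 23.2 within 50 nt, 28.5 for GCATG, and -3.14 (without the third enzyme-only library) to 14.9. Replicate numbers did not pair the brain samples: deviations of same-numbered libraries correlated at -0.054 to 0.090. With the replicate block the Cyrano difference was 2.33 (adjusted p = 0.00189 in edgeR), 46 genes were called, the OIP5-AS1 difference was 1.20 and 25 genes were called at 1 ng against 100 pg, and the exact permutation within numbers gave p = 0.25 for positions, clusters and the OIP5-AS1 fraction, 0.5 for the brain fraction and 1 for the share. A stricter adjusted p for clusters was not run, since the cluster tables used here hold none per library.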
